A study of Homo sapiens with 6 samples.

Results

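Cytosolic ribosomal proteins were taken as the genes of the deposited expression table whose symbols are RPL or RPS followed by a number (with a final A or X where there is one), together with RPLP0, RPLP1, RPLP2 and RPSA. The rule used symbols only and no measured value. It found 77 of the 12154 listed genes, 46 of the large (60S) and 31 of the small (40S) subunit, and all 77 passed the filter on low values. Their genes lay on 21 chromosomes, with 12 on chromosome 19 and 4 on chromosome X.

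The RNA-seq series compared 3 libraries of AS-tDR-007333-overexpressed cells with 3 libraries of NC (negative control) cells, to find which genes respond to AS-tDR-007333, a tRNA-derived fragment (tRF) cut from the 5′ end of a glycine tRNA. The sample labels name A549, a human lung adenocarcinoma line, transfected with a tRF plasmid or with empty vector by lipofection, whereas the methods of the study name PC9, another lung adenocarcinoma line, transfected with AS-tDR-007333 or NC. Both groups were otherwise described in the same way, as cultured cells lysed for total RNA. No source states whether replicate libraries derive from different cultures, and the error terms below may therefore reflect technical spread alone.

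The values are FPKM, fragments per kilobase of transcript after scaling to library size, and the listed genes summed to between 197324 and 202921 FPKM per library. The table gave no read counts, so the depth behind each value is unknown. The epithelial markers EPCAM (153 to 168 FPKM) and KRT19 (601 to 678 FPKM) were high in every library. The leukocyte markers PTPRC and CD3E, the endothelial markers PECAM1 and CDH5 and the fibroblast markers COL3A1 and PDGFRB were not among the listed genes, which reach a group mean of 0.5 FPKM or more, and the fibroblast marker COL1A1 was at 5.09 to 6.10 FPKM.

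Ribosomes translate mRNA into protein. The small subunit holds the mRNA and reads the codons, and the large subunit joins the amino acids. Ribosomal proteins are made in near equal numbers for assembly with ribosomal RNA in the nucleolus, and their mRNAs start with a 5′ terminal oligopyrimidine (TOP) tract, a C followed by a run of C and T, through which mTOR and the repressor LARP1 set their translation. Proliferating tumour cells carry these mRNAs in large amounts.

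The start of transcription is printed for 8 of these genes: RPS12, RPL41 and RPL13A as abundant members, RPSA and RPL18 as members with a low p in the group comparison, RPL14 and RPS29 as the least abundant, and RPL32 as the member with the lowest log2 difference, which did not pass the test. Each line gives 15 bases before and 15 bases from the annotated start, 5′ to 3′ on the strand of the gene, from the RefSeq promoter table of GRCh38.p14. The capitals mark the run of C and T that opens at the first transcribed base where that base is C and at least 4 more pyrimidines follow.
RPS12 (chr6:132814554-132814583, plus strand): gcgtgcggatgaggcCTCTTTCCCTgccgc
RPL41 (chr12:56116618-56116647, plus strand): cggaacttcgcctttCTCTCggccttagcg
RPL13A (chr19:49487593-49487622, plus strand): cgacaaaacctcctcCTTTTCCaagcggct
RPSA (chr3:39406705-39406734, plus strand): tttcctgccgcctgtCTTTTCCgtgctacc
RPL18 (chr19:48619164-48619193, minus strand): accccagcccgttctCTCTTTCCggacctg
RPL14 (chr3:40457324-40457353, plus strand): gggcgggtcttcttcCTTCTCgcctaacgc
RPS29 (chr14:49598696-49598725, minus strand): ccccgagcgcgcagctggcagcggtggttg
RPL32 (chr3:12841551-12841580, minus strand): gggttacgacccatcagcccttgcgcgcca

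The run was 10 bases long in RPS12, 8 in RPL18, 7 in RPL13A and RPSA, 6 in RPL14 and 5 in RPL41, while the RPS29 and RPL32 starts held no such run. RefSeq listed 1 start for RPS29 and 3 for RPL32. The motif was scored only at a listed base, so a tract that opens a few bases away was not counted. With the motif read on the strand of the gene at every listed start, 46 of the 62 ribosomal protein genes in the table carried it (74.2%), 28 of 38 in the large subunit and 18 of 24 in the small. Over all promoters of the same length, 1404 of 27305 genes carried it (5.14%), and over the genes tested here 643 of 8669 (7.42%). The mitochondrial ribosomal proteins, which form the ribosome inside mitochondria, carried it in 6 of 69 genes (8.70%). The other 15 ribosomal protein genes had no entry in the promoter table.

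Nearly all ribosomal protein mRNAs were among the most abundant in these cells. The median of the 77 mean levels was 107.8 FPKM (quartiles 70.0 and 172.6), against 6.30 FPKM for all 11042 genes tested. Of the 77, 40 lay at or above 100 FPKM, a level reached by 235 of the listed genes (1.93%), and these 40 made up 17.0% of that group. All but RPS29 were in the top 10% of listed genes by level. The levels were not equal to each other, since 50 of the 77 lay within 2-fold of the median and the highest mRNA exceeded the second lowest 15.3-fold.

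**Figure D1:**
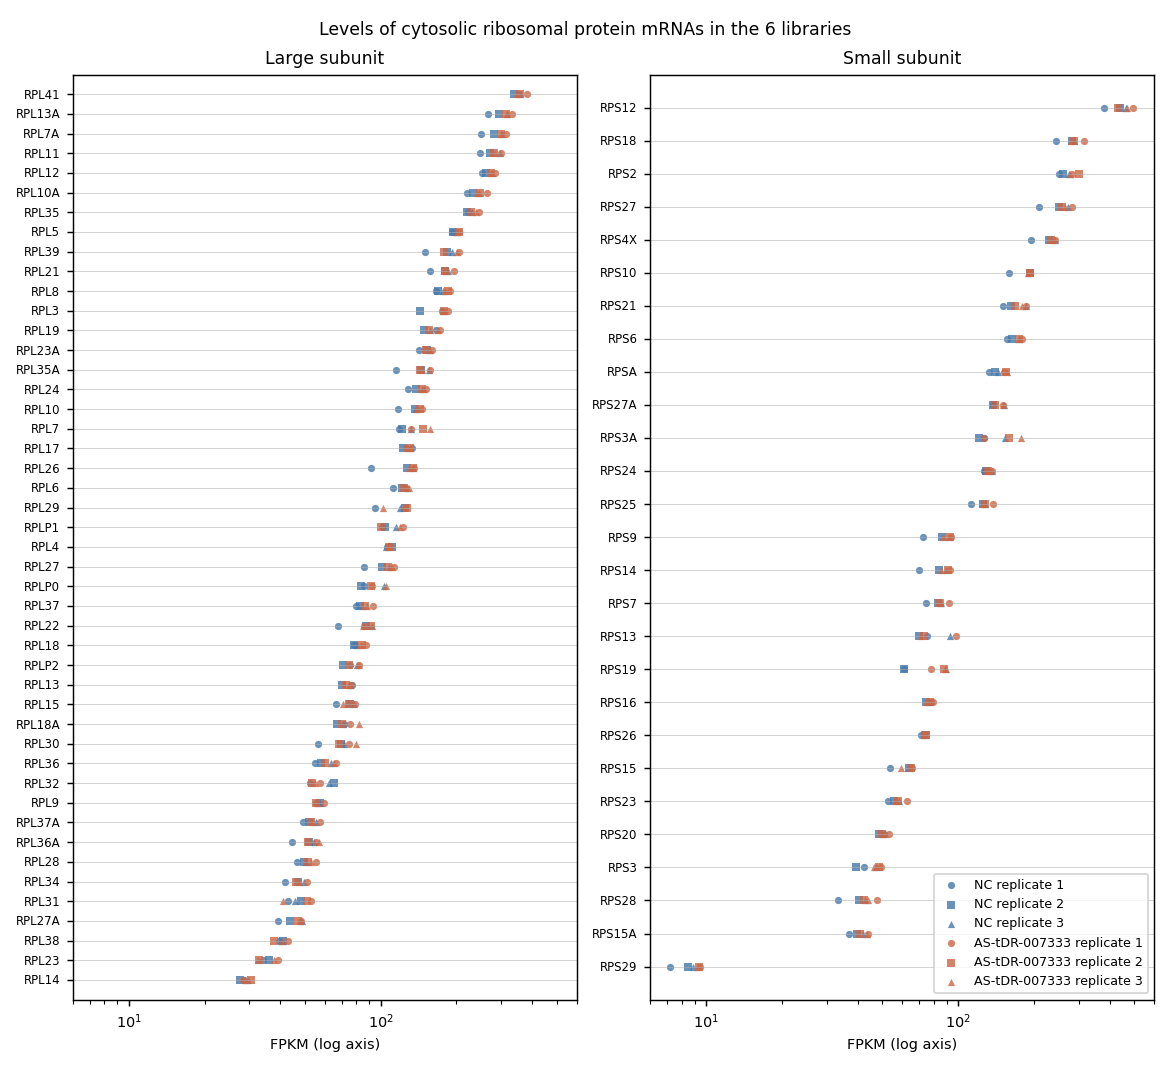
FPKM on a log axis for the ribosomal protein mRNAs shown, sorted by mean level within the large (left) and small (right) subunit; each point is 1 library, blue for NC and orange for AS-tDR-007333, with the marker shape giving the replicate. RPS12 and RPL41 lead the subunits, RPS29 stands alone at 8.76 FPKM, and NC replicate 1 (blue circle) is the leftmost point in most rows.

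RPS12, a small subunit protein of the beak region of the 40S head, had the highest level of all, with 377, 438 and 463 FPKM in the NC libraries and 493, 429 and 468 FPKM in AS-tDR-007333 libraries. The gene spans chr6:133135580-133138703 in GRCh37. Other abundant mRNAs of the small subunit were RPS18 (mean 283.2 FPKM), a protein of the subunit head, and RPS2 (274.4 FPKM), which lines the path by which mRNA enters the ribosome. In the large subunit RPL41, the smallest of all ribosomal proteins, came first with 355, 337 and 357 FPKM in NC cells and 381, 358 and 348 FPKM in AS-tDR-007333-overexpressed cells. RPL13A, which outside the ribosome takes part in the silencing of inflammatory mRNAs, averaged 307.1 FPKM. RPL7A, whose product binds ribosomal RNA, averaged 291.8 FPKM, and RPL11, which with RPL5 and the 5S rRNA binds the p53 regulator MDM2, 280.6 FPKM. The ranges of both groups overlapped for each of these mRNAs except RPS2.

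RPS29, a small zinc-binding protein of the 40S head, was listed far below the others. Its 3 NC libraries were at 7.19, 8.49 and 8.83 FPKM and its 3 AS-tDR-007333 libraries at 9.41, 9.37 and 9.29 FPKM, at the 64.7th percentile of listed genes, while the next lowest member, RPL14, was at the 90.2nd with a mean of 29.0 FPKM. The groups did not overlap for RPS29 (log2 difference 0.18, 95% interval −0.0098 to 0.37). The other low mRNAs of the small subunit were RPS15A (41.0 FPKM), RPS28 (41.7 FPKM) and RPS3 (45.4 FPKM), which sits at the mRNA entry site. Those of the large subunit were RPL23 (35.5 FPKM), another protein known to bind MDM2, RPL38 (40.4 FPKM), which in mice is needed for the translation of Hox mRNAs, and RPL27A (45.8 FPKM).

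Members with a longer annotation were, on the whole, listed at lower levels. The exons of all transcripts annotated for a gene in GENCODE 44 covered 639 bp for RPS12, 1108 bp for RPL41, 8626 bp for RPL14 and 9840 bp for RPS29, whose canonical transcript is only 295 bp long. Across the 77 genes, log2 mean FPKM fell with log2 exonic length (r = −0.65, rho = −0.58), and less so with the length of the canonical transcript (r = −0.30, rho = −0.28). FPKM is divided by a length that the table does not give, so the points share that division and the correlation is a description of these values. The median exonic length was 3228 bp, against 785 bp for the canonical transcripts. Whether a low FPKM stands for few mRNAs or for a long divisor was not tested.

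**Figure D2:**
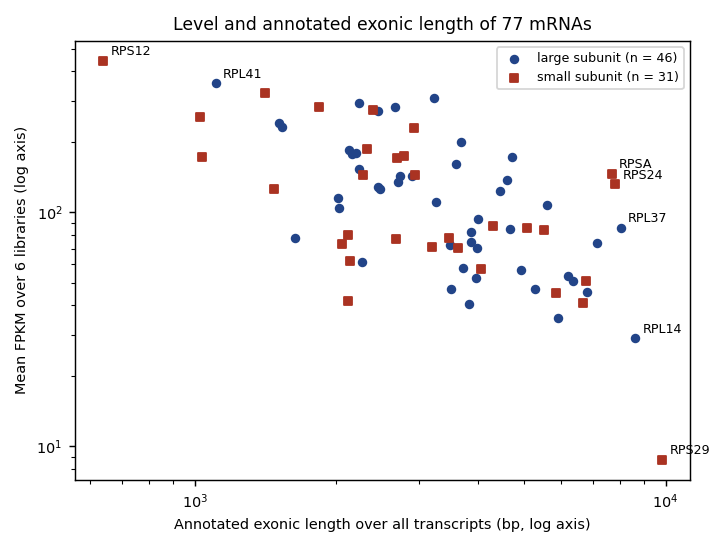
Mean FPKM over the 6 libraries (log axis) against the length in bp covered by the exons of all annotated transcripts (log axis) for the 77 genes, blue circles for the large subunit and red squares for the small. RPS12 with 639 bp is at the upper left and RPS29 with 9840 bp at the lower right.

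Ribosomal protein genes have many processed pseudogenes, intronless copies whose sequence is close to that of the mRNA. GENCODE named 1587 pseudogenes of any type for these 77 genes, at least 1 for each, with 133 for RPL21, 87 for RPL23A, 80 for RPL7A and 74 for RPSA. Level and number of pseudogenes were weakly related across the genes (r = 0.15, rho = 0.14). Reads that fit a gene and its copies cannot be placed with certainty, so all 77 levels carry this uncertainty. In addition, 8 genes overlapped another listed gene on the same strand (RPL17, RPL26, RPL36, RPL36A, RPS10, RPS13 and RPS15A among them), and their reads may be shared with it.

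The P-stalk, the flexible arm of the large subunit that recruits the GTPases of elongation, is formed by RPLP0 with RPLP1 and RPLP2. RPLP0 averaged 93.6 FPKM, RPLP1 110.3 FPKM and RPLP2 77.6 FPKM. RPLP1 ranged from 101 to 115 FPKM in NC cells and from 100.1 to 122 FPKM in AS-tDR-007333-overexpressed cells, and the ranges of RPLP0 and RPLP2 overlapped between the groups as well. RPS27A, which is made as a fusion with ubiquitin, averaged 144.5 FPKM. Of the X-linked members, RPS4X averaged 229.4 FPKM, RPL10, a late-joining protein next to the catalytic centre, 136.9 FPKM, and RPL39 of the peptide exit tunnel ranged from 150.4 to 204.1 FPKM over the libraries. RPL36A, the last of them, ranged from 44.5 to 57.0 FPKM.

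The mRNAs of the ribosomal proteins were listed slightly higher in AS-tDR-007333-overexpressed cells than in NC cells, by a median of 0.10 on the log2(FPKM + 1) scale, and none was called. The medians were 0.09 for the large and 0.11 for the small subunit, against −0.01 for all genes tested. The difference was positive for 75 of the 77 members, 44 of 46 in the large and 31 of 31 in the small subunit, while 45.0% of all genes tested had a positive difference. In bulk RNA, more cells with high ribosomal protein mRNA and more of it per cell cannot be told apart.

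With limma on all 11042 genes and Benjamini-Hochberg adjustment, 0 of the 77 passed an adjusted p of 0.05 (smallest 0.9996), where 7 genes in all did (0.0634%). At an unadjusted p under 0.05, 7 members were higher, 9.09% of them, against 1.63% of all genes, and 0 were lower, against 1.98% of all genes. A Ballgown-style per-gene model, the kind of fit that the study used, also called 0 members, placed 2 higher and 1 lower by the same unadjusted threshold, and put the median difference of the 77 at 0.031, with 58 positive. Its 2 higher members were 2.60% of the 77, below the 3.505% of all genes under that model. All 3 AS-tDR-007333 libraries lay above all 3 NC libraries for 11 members (14.3%), against 3.58% of all genes tested, and the reverse order occurred for 0. Among these were RPL5, RPL8, RPL10, RPL18, RPL28, RPL37, RPS2, RPS29 and RPSA. Of the 195 other genes at or above 100 FPKM, 15 (7.69%) had all AS-tDR-007333 libraries above all NC libraries, and 5 had the reverse order. At an unadjusted limma p under 0.05, 5 of these 195 genes (2.56%) were higher and 1 was lower.

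Leaving out NC replicate 1 lowered the median difference to 0.047, with 66 positive members, and the other 5 omissions gave medians from 0.078 to 0.15. The number of members higher at an unadjusted p under 0.05 was 24 without NC replicate 3 (31.2%, against 2.05% of all genes) and 2 without NC replicate 2 (2.60%, against 1.67%). Without NC replicate 1 it was also 2, a share of 2.60% that was close to the 2.51% of all genes. It was 4 without AS-tDR-007333 replicate 1, 3 without replicate 2 and 5 without replicate 3, against 1.40, 1.48 and 1.49% of all genes.

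**Figure D3:**
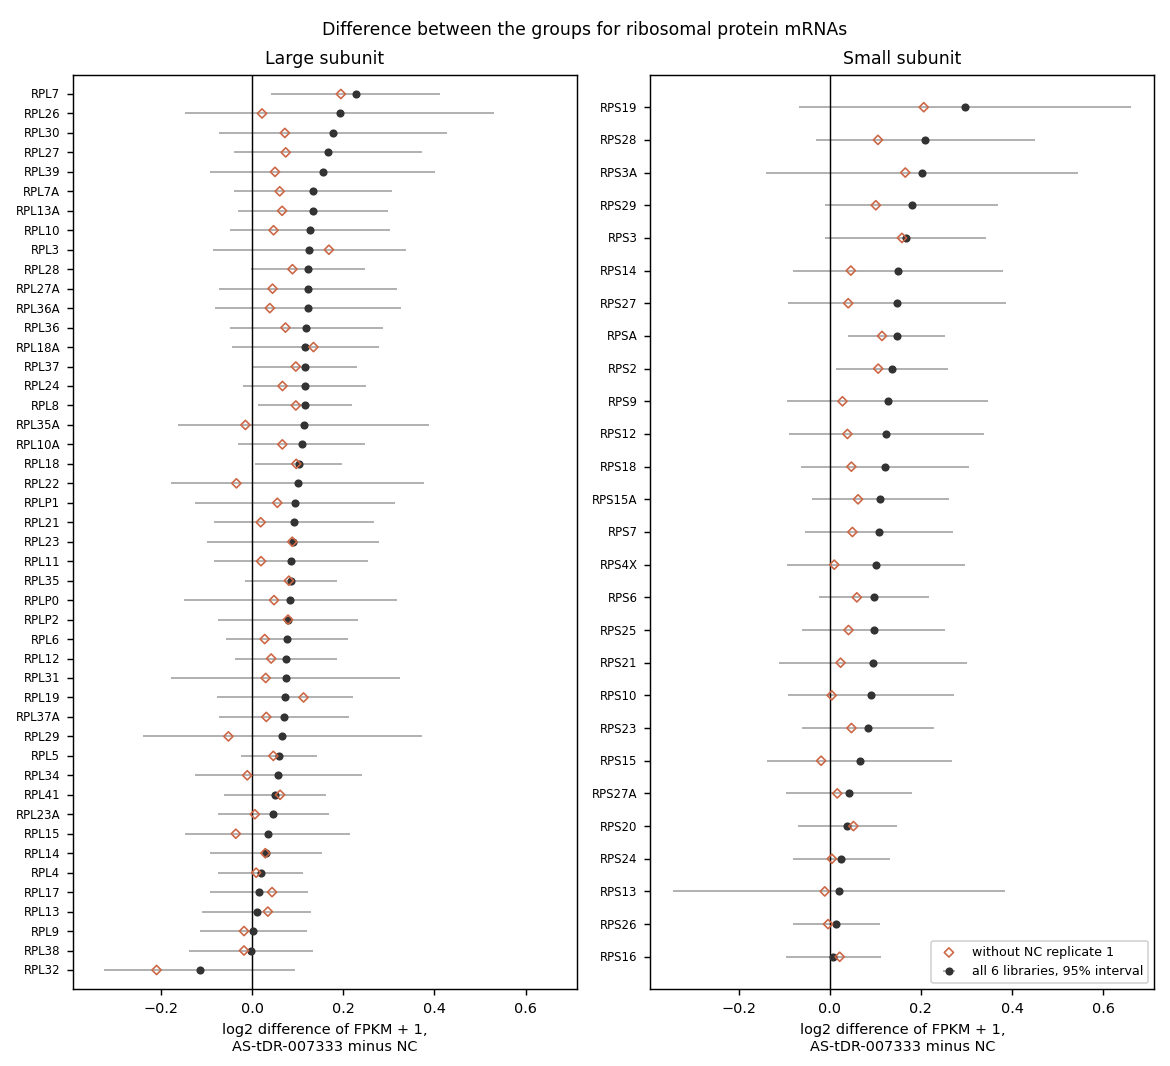
Difference between AS-tDR-007333 and NC libraries on the log2(FPKM + 1) scale for the mRNAs shown, sorted within the large (left) and small (right) subunit; black points with grey bars are the limma estimates with 95% intervals from all 6 libraries, and open diamonds the estimates without NC replicate 1. Most points lie to the right of 0 with intervals that reach it, RPL7 is the highest and RPL32 the lowest of the large subunit, and most diamonds are closer to 0.

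RPSA, a small subunit protein also known as the precursor of the laminin receptor, was at 133, 140 and 144 FPKM in NC cells and at 151, 155 and 155 FPKM in AS-tDR-007333-overexpressed cells. The groups did not overlap, and the log2 difference was 0.15 (SE 0.044, 95% interval 0.041 to 0.25; the intervals here are per gene and not adjusted for the number of genes). RPS2 was at 250.1, 260.0 and 274.0 FPKM in NC cells and at 283.0, 301.4 and 278.1 FPKM in AS-tDR-007333-overexpressed cells (log2 difference 0.14, SE 0.051, 95% interval 0.014 to 0.26). AS-tDR-007333 replicate 3 was only just above NC replicate 3.

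In the large subunit RPL7 had the largest difference, 0.23 (SE 0.077, 95% interval 0.042 to 0.41). Its levels were 118, 121 and 132 FPKM in NC cells and 132, 147 and 157 FPKM in AS-tDR-007333-overexpressed cells, so that the lowest AS-tDR-007333 library and the highest NC library met. RPL8, a protein close to the centre where peptide bonds form, was at 166, 168 and 177 FPKM in NC cells and at 189, 185 and 179 FPKM in AS-tDR-007333-overexpressed cells (0.12, SE 0.043, 95% interval 0.012 to 0.22). RPL18 rested on small gaps, with 78.7, 78.5 and 80.6 FPKM in NC cells and 87.4, 84.4 and 83.7 FPKM in AS-tDR-007333-overexpressed cells (0.10, SE 0.040, 95% interval 0.0065 to 0.20). RPL37 was at 80.1, 82.9 and 84.1 FPKM in NC cells and at 93.7, 86.3 and 88.1 FPKM in AS-tDR-007333-overexpressed cells (0.12, SE 0.048, 95% interval 0.00086 to 0.23). The groups of RPL8, RPL18 and RPL37 did not overlap. The unadjusted p was under 0.05 in 11 of 13 settings for RPSA, in 8 for RPL7, in 7 for RPL8 and RPS2, in 6 for RPL18 and in 5 for RPL37.

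RPL32, a large subunit protein, had the lowest difference, −0.12 (SE 0.087, 95% interval −0.33 to 0.095). Its NC libraries were at 52.5, 65.6 and 62.7 FPKM and its AS-tDR-007333 libraries at 57.3, 53.5 and 55.1 FPKM. NC replicate 1 was the lowest library of all here, and without it the difference was −0.21, with a Benjamini-Hochberg adjusted limma p of 0.626. The other negative difference, −0.0023 for RPL38, was close to 0, as were those of RPL9 (0.0028) and RPS16 (0.0079). The differences of RPS26 (0.014), which lies at the mRNA exit channel, and RPS13 (0.021) were also near 0. The interval of RPS26 ran from −0.081 to 0.11, while that of RPS13 ran from −0.34 to 0.38, since its libraries ranged from 70.1 to 97.6 FPKM.

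RPS19, whose gene is the one most often mutated in Diamond-Blackfan anaemia, had a difference of 0.30 (SE 0.15, 95% interval −0.068 to 0.66). Its levels were 60.6, 61.0 and 88.3 FPKM in NC cells and 78.1, 87.8 and 89.0 FPKM in AS-tDR-007333-overexpressed cells, and NC replicate 3 lay among the AS-tDR-007333 libraries. RPS3A was at 126, 121 and 153 FPKM in NC cells and at 127, 159 and 177 FPKM in AS-tDR-007333-overexpressed cells (0.20, 95% interval −0.14 to 0.54). RPL26, which binds the p53 mRNA, was at 91.6, 127 and 135 FPKM in NC cells and at 136, 134 and 129 FPKM in AS-tDR-007333-overexpressed cells, where NC replicate 1 alone was low. These 3 mRNAs had the widest ranges over the 6 libraries (0.55, 0.54 and 0.56 on the log2 scale), followed by RPS28 (0.51) and RPL30 (0.49). RPS28 differed by 0.21 and RPL30 by 0.18 between the groups, each with an interval that reached below 0.

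NC replicate 1 stood apart from the other 5 libraries in these mRNAs. It held the lowest value of 55 of the 77 members (71.4%), whereas it held the lowest value of 19.2% of all genes tested. That share was 40.5% for the proteasome genes and 37.2% for the mitochondrial ribosomal proteins. For ribosome biogenesis factors and for other TOP mRNAs it was 23.1% and 20.0%. NC replicate 1 was below both other NC libraries for 58 members (75.3%), against 34.9% of all genes tested. Over all genes tested it was also the most extreme library, with the lowest value of 2124 and the highest of 2911, the most in both directions. Among the members it held the highest value of 2. AS-tDR-007333 replicate 1 stood at the other end, with the highest value of 53 members, against 1370 of the 11042 genes tested. Of the 195 other genes at or above 100 FPKM, it was highest for 68. Relative to each mRNA's own mean, the median member deviated by −0.14 in NC replicate 1, −0.04 in NC replicate 2 and 0.04 in NC replicate 3, and by 0.09, 0.01 and 0.03 in the 3 AS-tDR-007333 libraries, on the log2 scale. NC replicate 3 thus lay level with AS-tDR-007333 replicates 2 and 3.

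**Figure D4:**
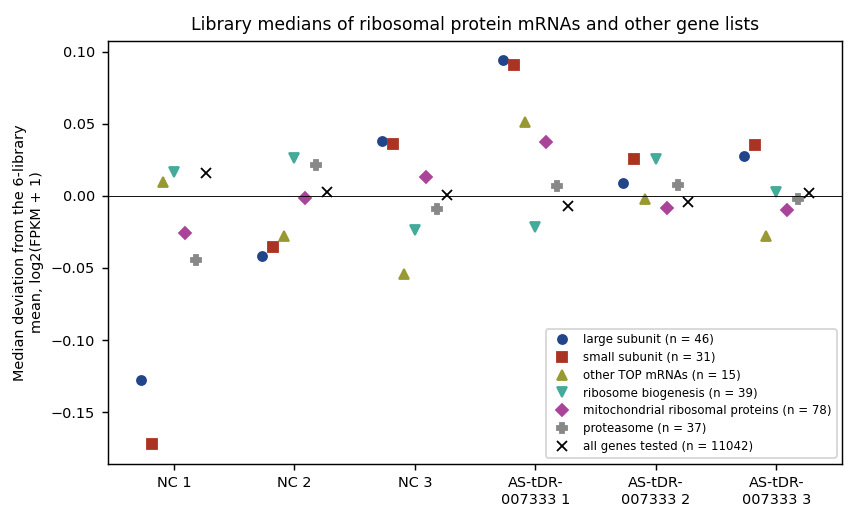
Median deviation from the 6-library mean on the log2(FPKM + 1) scale in each library, for the large and small subunit, for 4 other gene lists and for all 11042 genes tested; each point is the median of 1 list in 1 library, and points are set side by side for legibility. Both subunits are lowest in NC replicate 1 and highest in AS-tDR-007333 replicate 1, while the medians of the other lists stay between about −0.05 and 0.05.

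The difference between the groups was accordingly unequal over the NC libraries. AS-tDR-007333 libraries exceeded NC replicate 1 by a median of 0.19, the mean of the other NC libraries by 0.047 and NC replicate 3 by 0.0052. The coefficient of variation of a member, in the median, was 7.12% in NC cells, 4.09% in AS-tDR-007333-overexpressed cells and 3.86% in NC cells without replicate 1. The last value rests on the other NC libraries alone, and leaving out the most deviant library narrows a spread by itself. What set NC replicate 1 apart was not tested.

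The members that followed the sum of the others most closely over the 6 libraries were RPL13A (r = 0.997), RPL24 (r = 0.996), which forms a bridge between the subunits, RPL7A (r = 0.99) and RPS6 (r = 0.99), the substrate of S6 kinase. RPS6 was at 156, 164 and 174 FPKM in NC cells and at 179, 174 and 174 FPKM in AS-tDR-007333-overexpressed cells. RPL17 was the least like the sum (r = −0.30), with its highest NC level, 133 FPKM, in NC replicate 1. These values share the scaling of each library and describe 6 points.

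Together the 77 mRNAs held 4.56, 4.94 and 5.14% of the summed FPKM in the NC libraries and 5.29, 5.12 and 5.21% in the AS-tDR-007333 libraries. The means were 4.88% ± 0.30 (SD, n = 3) and 5.21% ± 0.086 (SD, n = 3), a ratio of 1.07, and the groups overlapped. Without NC replicate 1 the NC mean was 5.04% and the ratio 1.03. The 10 highest members held 30.6% of the ribosomal protein total. Mitochondrially encoded mRNAs, which are part of the same sum, held 15.1 to 15.8% of it in the 6 libraries.

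**Figure D5:**
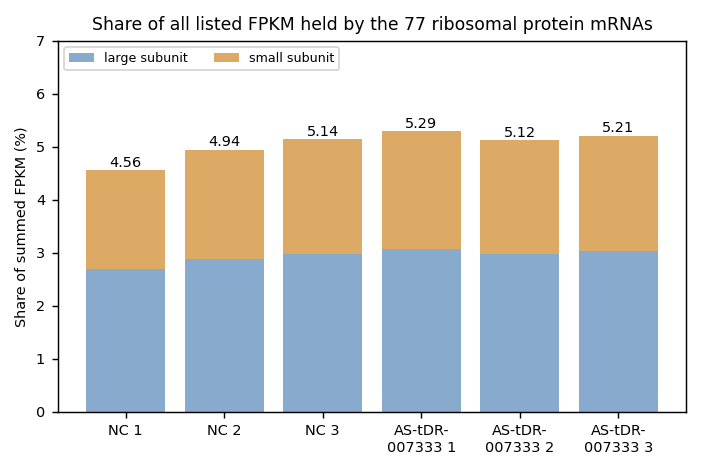
Share of the summed FPKM of all listed genes, in percent, held by the large (blue) and small (orange) subunit mRNAs in each of the 6 libraries, with the total printed above each bar. NC replicate 1 has the lowest total, 4.56%, and AS-tDR-007333 replicate 1 the highest, 5.29%.

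Each subunit was also summed alone. Large subunit mRNAs held 2.69, 2.88 and 2.98% of the summed FPKM in NC cells and 3.07, 2.97 and 3.03% in AS-tDR-007333-overexpressed cells. Small subunit mRNAs held 1.87, 2.06 and 2.16% in NC cells and 2.22, 2.15 and 2.18% in AS-tDR-007333-overexpressed cells. The ratio of the large to the small subunit sum was 1.437, 1.398 and 1.380 in the NC libraries. It was 1.384, 1.382 and 1.385 in the AS-tDR-007333 libraries. NC replicate 1 had the highest ratio of sums, and its small subunit mRNAs were further below their means (median −0.17) than its large subunit mRNAs (−0.13). Without it the NC mean ratio of 1.39 and the AS-tDR-007333 mean of 1.38 lay closer together than the 2 other NC libraries did. The ratio of the subunit medians gave another order. It was 1.198, 1.241 and 1.208 in the NC libraries, lowest in NC replicate 1, and 1.204, 1.158 and 1.234 in the AS-tDR-007333 libraries, and the groups overlapped. The median member was at 109.1 FPKM in the large and 87.1 FPKM in the small subunit.

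Members with and without a TOP tract at an annotated start were set side by side. The 46 members with the motif had a median log2 difference of 0.10 and a median level of 120.5 FPKM, and the 16 without it of 0.075 and 94.2 FPKM. The 15 tested TOP mRNAs of other translation proteins, such as elongation factors, had a median difference of 0.014. An unadjusted limma p under 0.05 was reached by 1, higher (6.67%, against 1.63% of all genes), and by 0 lower. That one was TPT1, a growth-related protein, at 76.8, 63.9 and 73.1 FPKM in NC cells and 87.6, 78.0 and 80.1 FPKM in AS-tDR-007333-overexpressed cells (0.20, 95% interval 0.0040 to 0.40). The 12 tested genes of TOP control, mTOR pathway and LARP1 genes among them, had a median of 0.019 with 0 at an unadjusted p under 0.05 in either direction.

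The genes of ribosome production, from rRNA synthesis to the import of ribosomal proteins, had medians close to that of all genes. Of 39 tested ribosome biogenesis factors, 14 RNA polymerase I genes and 15 chaperones and importers of ribosomal proteins, 0 were at an unadjusted limma p under 0.05, and 0 were called, also under the Benjamini-Hochberg adjustment. Their median log2 differences were −0.0065, −0.0093 and −0.020. Single ribosome biogenesis factors ranged from −0.96 to 0.18. Across the 77 members, the log2 difference was weakly related to log2 mean FPKM (r = 0.056, rho = 0.14). The 195 other genes at or above 100 FPKM had a median difference of 0.026, with 71.3% positive. NC replicate 1 held the lowest value of 34.9% of these.

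Ribosomal proteins whose symbols fall outside the rule were also measured. FAU, which encodes RPS30 as a fusion with a ubiquitin-like protein, was at 52.9, 56.2 and 55.5 FPKM in NC cells and at 59.3, 58.7 and 61.3 FPKM in AS-tDR-007333-overexpressed cells (0.12, 95% interval 0.013 to 0.23). RACK1, a scaffold on the 40S subunit, differed by 0.074 (95% interval −0.033 to 0.18).

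Among 6 tested paralogs of ribosomal proteins, RPL7L1, a relative of RPL7 that acts in ribosome assembly, was higher in AS-tDR-007333-overexpressed cells. Its levels were 9.07, 9.60 and 9.79 FPKM in NC cells and 15.5, 16.1 and 15.7 FPKM in AS-tDR-007333-overexpressed cells (0.68, SE 0.052, limma Benjamini-Hochberg adjusted p = 0.0207), with the groups far apart. The study itself lists RPL7L1 among the genes regulated in its RNA-seq experiment, so this call is not an independent result. The other 5 were not called, with differences of 0.12 for RPL26L1, 0.057 for RPL22L1, 0.054 for RPL39L, 0.0031 for RPL36AL and −0.060 for RPS27L. All 6 were lower in NC replicate 1 than in both other NC libraries.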

How the data were processed

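According to the study's methods, stranded RNA-seq reads went through StringTie for trimming and HISAT2 for alignment to GRCh37, and the authors calculated FPKM with Ballgown. The submitters' notes on processing name featureCounts 1.5.0-p3 beside HISAT2 2.0.5. The deposited FPKM are scaled to each library's mapped fragments, and their annotation release is not stated in the sources read. Scaling makes every value relative to the rest of its library. No 2 libraries shared an equal non-zero value for any gene (0 genes).

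Values were compared as log2(FPKM + 1), which understates changes of low genes, with limma 3.58.1 (mean-variance trend) in R 4.3.3 over the 11042 genes averaging 1 FPKM or more, with Benjamini-Hochberg adjustment. The procedure was tested on simulated data. Lengths, overlaps and pseudogenes came from GENCODE 44 mapped to GRCh37, which may differ from the authors' annotation, and matched all 77 genes.

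The members and lists were chosen with earlier results of these data known. Named members were those at an unadjusted p under 0.05, the 4 highest and 4 lowest by level and the 3 highest and 3 lowest by difference in each subunit, the 5 of widest range, the 4 most like the sum of the others, the P-stalk genes, RPSA, RPS27A and the X-linked genes; of other lists, up to 4 genes at an unadjusted p under 0.05, and RPL7L1. RPL5, RPL17, RPL28, the genes of the non-overlapping and same-strand sets and the other paralogs were named after their values were seen. Some genes that meet these rules are included in all counts but not reported here by name, in text or plots.

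Alternatives were a block for the replicate number, omission of each library, a Ballgown-style model with a library term, median-of-ratios rescaling, a pseudocount of 0.1, filters at 5 FPKM or none, and other denominators and gene sets for shares and ratios.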

Additional observations from a re-analysis of the deposited data

How the results depend on the processing

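Under every alternative run, 0 of the 77 members were called, with a smallest adjusted p from 0.0655 (without NC replicate 1) to 0.9999 (replicate block). The 7 members higher at an unadjusted p under 0.05 (9.09%, against 1.63% of all genes) became 2 under the Ballgown-style model (2.60% against 3.505%), 4 with the replicate block (5.19% against 1.58%), and 2 to 24 when 1 library was left out (all genes 1.40 to 2.51%). The share was thus below that of all genes under the Ballgown-style model and close to it without NC replicate 1. Of the original 7, 7 remained with rescaled values, a pseudocount of 0.1, a filter at 5 FPKM or none, 3 with the block, 2 under the Ballgown-style model, and 1 to 5 when 1 library was left out. Same-numbered libraries did not deviate together (correlations of −0.013, 0.011 and −0.0054 over all genes and of −0.075, 0.085 and 0.11 over the members), so the numbers were not taken as pairs. Some differences changed sign. RPL38 was at 0.0096 after rescaling. The Ballgown-style model turned RPL26 from 0.19 to −0.0055, RPS4X from 0.10 to −0.0051 and RPL11 from 0.086 to −0.00050, and among differences near 0 it gave −0.039 for RPL9, −0.095 for RPS13 and −0.0026 for RPS26. Leaving out 1 library gave −0.032 to 0.021 for RPL9, −0.12 to 0.13 for RPS13, −0.0037 to 0.029 for RPS26, −0.043 to 0.043 for RPL38 and −0.013 to 0.030 for RPS16. The cause was not tested. The remaining values were 46 for the summary results and 474 for single genes. They kept their direction and their side of an adjusted p of 0.05, or moved by less than the spread between replicates. The unadjusted p of RPL8, RPL18 and other genes did cross 0.05 between settings. Depth is unknown, and with 3 libraries in a group the differences of about 0.10 seen here are near the median standard error of a member, 0.072.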

Other observations

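The mitochondrial ribosomal proteins, which are encoded in the nucleus, had values spread about 0. Of 78 tested, 2 were higher (2.56%, against 1.63% of all genes) and 1 was lower (1.28%, against 1.98%) at an unadjusted limma p under 0.05. After Benjamini-Hochberg adjustment 0 were called, and the median log2 difference was 0.0065. Their share of the summed FPKM was 0.655% ± 0.0048 (SD, n = 3) in NC cells and 0.647% ± 0.012 (SD, n = 3) in the AS-tDR-007333 group. MRPL19 was at 8.54, 2.85 and 3.42 FPKM in NC cells and at 11.0, 9.88 and 10.9 FPKM in AS-tDR-007333-overexpressed cells (log2 difference 1.08, SE 0.33), with NC replicate 1 close to the AS-tDR-007333 libraries. MRPL10 was at 12.9, 12.5 and 13.6 FPKM in NC cells and at 12.4, 5.42 and 7.48 FPKM in AS-tDR-007333-overexpressed cells (−0.64, SE 0.25), where AS-tDR-007333 replicate 1 was close to the NC libraries. MRPS16 differed by 0.16.

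The 37 proteasome genes, another set of subunits made for 1 complex, had a median difference of 0.014, and 0 were called. At an unadjusted limma p under 0.05, 2 were higher (5.41%, against 1.63% of all genes) and 0 lower. All AS-tDR-007333 libraries lay above all NC libraries for 4 of them (10.8%, against 3.58% of all genes), and the reverse order occurred for 1. PSMA7, a subunit of the 20S core, was at 82.4, 85.1 and 85.1 FPKM in NC cells and at 90.9, 91.6 and 95.7 FPKM in AS-tDR-007333-overexpressed cells. PSMB2, another core subunit, differed by 0.24. The share of the proteasome genes in the summed FPKM was 0.629% ± 0.016 (SD, n = 3) in NC cells and 0.639% ± 0.0027 (SD, n = 3) in the AS-tDR-007333 group.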
